A study of Rattus norvegicus with 18 samples.

Results

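The inhibitory receptors of T cells were followed at the mRNA level in rat CD4+ T-MBP cells. The 9 genes were Pdcd1, Ctla4, Lag3, Havcr2, Tigit, Timd2, Cd5, Btla and Cd160, taken by gene name from the 32882 genes listed in each of 3 rat tables. T-MBP cells are T cells of Lewis rats that recognize myelin basic protein (MBP) and cause experimental autoimmune encephalomyelitis after transfer into healthy rats. There were 18 libraries, 3 in each of 6 groups. All cells were isolated on day 3 post transfer.

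In the parenchyma of the spinal cord, Ets1 KO cells were compared with NT cells, which carry a non-targeting guide RNA and are labelled WT. In the spleen, Ets1 KO cells were compared with NT cells, and Grk2 KO cells with NT cells of a separate experiment. Ets1 is a transcription factor and Grk2 a kinase of G-protein-coupled receptors. Before transfer, all cells had been expanded in T cell growth medium and restimulated with MBP and irradiated thymocytes. KO cells carried GFP and NT cells BFP, each from a retrovirus, so the edit and the color cannot be told apart. The edited cells are pools from cultures and not clones. The study describes the Ets1 KO and NT cells of the parenchyma as taken from co-transferred rats, which received both kinds of cells. The labels do not give the sex or age of the rats, nor say which libraries came from one rat.

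Inhibitory receptors restrain T cells after antigen recognition. CTLA-4 competes with the costimulatory receptor CD28 for CD80 and CD86, PD-1 (Pdcd1) and BTLA recruit phosphatases, LAG-3 binds MHC class II, and TIGIT competes with CD226 for nectin-like ligands. TIM-3 (Havcr2) and the rodent receptor TIM-2 (Timd2) belong to the TIM family, CD5 tunes signaling of the antigen receptor, and CD160 shares the ligand HVEM (Tnfrsf14) with BTLA. Several of these receptors are induced by activation, so their mRNA is used as a sign of both recent stimulation and chronic exposure to antigen.

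Cells labelled as CD4+ T cells had the markers of T cells. The 7 T cell markers summed to between 2431 and 3321 RPM (a gene's reads as a share of all reads on genes in the library, on the usual RPM scale) in every library, with none at 0. Cd4 itself was low, with group means between 7.96 and 30.3 RPM. Of the regulatory T cell markers, Ikzf2 was listed at 0 in all groups, and Foxp3 and Ikzf2 together did not pass 2.09 RPM. The libraries held 898092 to 2248258 reads on genes, and the spleen Ets1 KO libraries were deeper, at 1909862 to 2248258, than their NT libraries, at 898092 to 1213485. One spleen Ets1 KO library, replicate 3, stood apart from the other 2 libraries of its group, with a chi-square per degree of freedom of 8.15 and 8.44 against them, where other pairs of replicates lay between 1.44 and 4.21. No 2 replicates agreed within sampling noise.

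The mRNA of the edited genes was checked first. Grk2 was at 158 ± 14.1 normalized counts in spleen NT cells and at 68.3 ± 17.4 in Grk2 KO cells (SD, n = 3 each), a log2 fold change of -1.22 ± 0.13 (SE, limma, adjusted p = 1.76e-12). Ets1 mRNA was not lower in Ets1 KO cells. It was at 2400 ± 150 in parenchyma NT and 2551 ± 183 in parenchyma Ets1 KO cells, with an adjusted p of 0.560 by limma, and at 2077 ± 135 and 2000 ± 324 in the spleen, with an adjusted p of 0.854 by limma. Reads at 3′ ends do not show a small edit elsewhere in the gene, so these values check nothing about the Ets1 edit.

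Since Ets1 is a DNA-binding factor whose family binds a GGAA core, the bases before the start of 4 receptor genes are shown, 2 that were called in the parenchyma (Timd2 and Havcr2) and 2 that were tested and not called (Ctla4 and Cd5). Each is the 250 bases before the gene's start in RefSeq on GRCr8, 5′ to 3′ on the strand of the gene. Capitals mark GGAA or its reverse complement TTCC. These are at chr10:31595877-31596126 (minus strand), chr10:31383675-31383924 (plus strand), chr9:69813171-69813420 (plus strand) and chr1:216811210-216811459 (minus strand), in the order printed.
Timd2: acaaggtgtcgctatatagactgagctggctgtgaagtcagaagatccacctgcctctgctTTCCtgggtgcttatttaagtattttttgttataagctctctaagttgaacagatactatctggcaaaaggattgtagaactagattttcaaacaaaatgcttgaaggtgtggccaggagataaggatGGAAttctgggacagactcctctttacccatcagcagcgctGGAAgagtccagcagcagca
Havcr2: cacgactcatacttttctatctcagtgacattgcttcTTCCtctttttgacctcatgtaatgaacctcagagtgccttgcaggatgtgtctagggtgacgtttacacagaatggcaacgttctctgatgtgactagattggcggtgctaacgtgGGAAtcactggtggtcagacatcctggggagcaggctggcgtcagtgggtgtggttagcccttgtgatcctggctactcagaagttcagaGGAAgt
Ctla4: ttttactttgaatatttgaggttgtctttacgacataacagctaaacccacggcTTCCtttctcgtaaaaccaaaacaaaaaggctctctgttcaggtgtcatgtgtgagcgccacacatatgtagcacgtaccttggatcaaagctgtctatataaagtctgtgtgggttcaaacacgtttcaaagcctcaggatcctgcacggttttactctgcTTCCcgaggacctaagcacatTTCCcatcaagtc
Cd5: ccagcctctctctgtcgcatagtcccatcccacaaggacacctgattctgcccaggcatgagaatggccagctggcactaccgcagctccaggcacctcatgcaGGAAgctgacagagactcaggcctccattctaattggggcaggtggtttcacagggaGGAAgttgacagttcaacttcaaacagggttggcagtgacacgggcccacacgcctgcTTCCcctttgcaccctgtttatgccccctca
Each of the 4 held 3 matches to GGAA on either strand. Of all 33469 promoters of this length, 93.2% held at least 1 match and the median was 3 matches. The longer motif CCGGAAGT, which contains the GGAA core and was searched on both strands with ACTTCCGG, was present in none of the 8 receptor promoters with an entry (all but Lag3) and in 3.10% of all promoters. A match is a description of letters, not a binding site.

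Only 5 of the 9 receptors passed the minimum of a mean normalized count of 10 over the 6 parenchyma libraries: Ctla4, Lag3, Havcr2, Timd2 and Cd5. In the spleen Ets1 table Ctla4, Timd2 and Cd5 passed, and in the spleen Grk2 table Ctla4 and Cd5. A normalized count is the number of reads of a gene divided by the size factor of the library, and is compared only within a table. Pdcd1 and Cd160 were listed at 0 in all 18 libraries. With 3 reads as the limit that a count of 0 allows, their levels lay under 1.33 to 3.34 RPM, depending on the library. Tpi1, an enzyme of glycolysis that all cells use, was also listed at 0 in all 18 libraries, so a gene at 0 is not thereby shown to be silent. Tigit had 5 reads in all, in 4 libraries, and its annotated interval lies within Gramd1c on the same strand. Btla had 28 reads in 12 libraries and at most 6 in one.

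**Figure D1:**
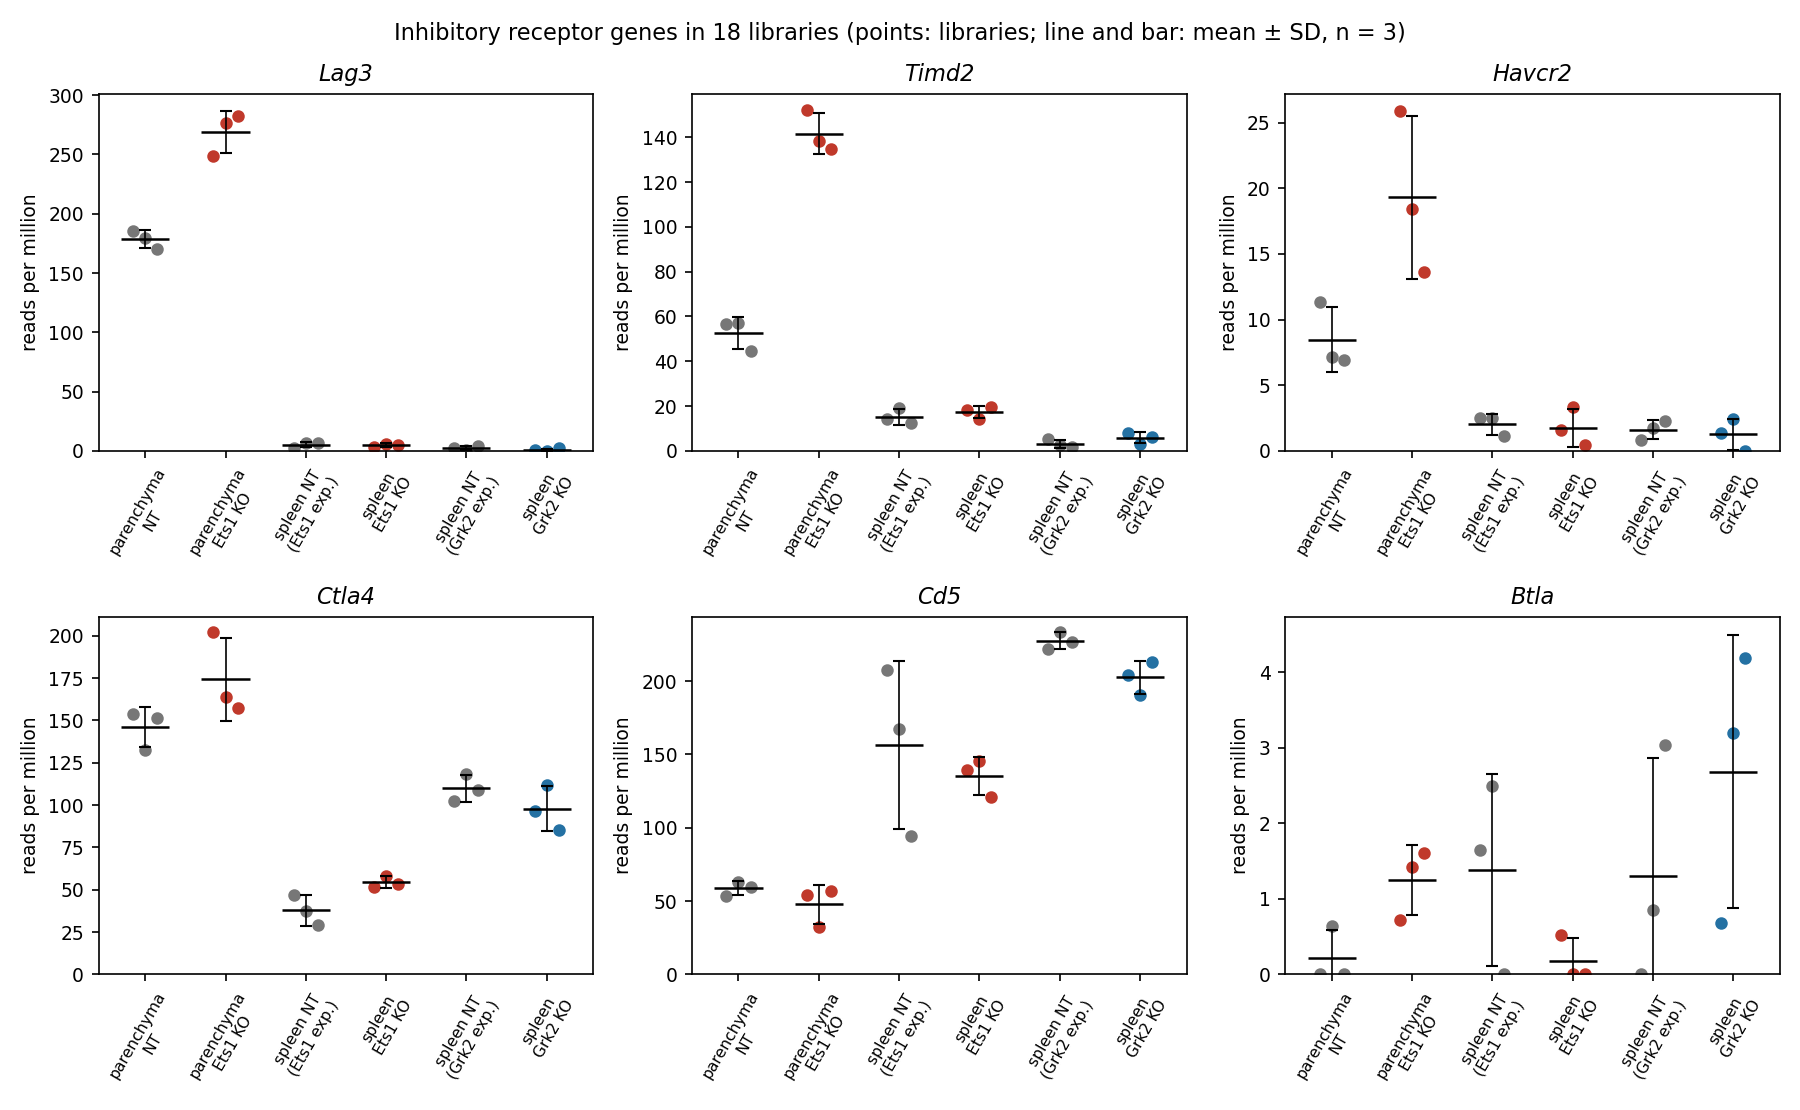
Level in RPM (y axis, linear from 0) of 6 receptor genes in the 6 groups of 3 libraries; points are libraries, lines and bars the mean ± SD. Lag3, Timd2 and Havcr2 are highest in parenchyma Ets1 KO cells, Cd5 is lower in the parenchyma than in the spleen, and Btla stays under 4.19 RPM in all but 1 library, which is at 4.19.

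In the parenchyma, Lag3, Havcr2 and Timd2 rose in Ets1 KO cells and Ctla4 and Cd5 were not called. Thus 3 of the 5 tested receptors were called, all higher in KO, where 5.23% of all 7002 tested genes were called in either direction, 2.27% higher and 2.96% lower. The receptors were chosen with earlier results of these data known, so here and below the shares of all genes give a scale and no test. The comparison asks which transcripts depend on Ets1 in autoreactive T cells that have reached the target tissue. All tests across genes were made with limma on log2(normalized count + 1), with p-values adjusted over all tested genes, and a call is an adjusted p under 0.05. In the parenchyma fit limma took the variance from a trend over genes of like level. Without this trend, 0 receptors were called.

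Timd2, which encodes a receptor for H-ferritin and semaphorin 4A, showed the largest change of the receptors. Its normalized counts were 79.4, 82.8 and 62.9 in NT libraries 1 to 3 and 213, 197 and 190 in Ets1 KO libraries 1 to 3. Every KO library was far above the highest NT library. The means were 75.0 ± 10.6 and 200 ± 11.8 (SD, n = 3 each), and the log2 fold change was 1.41 ± 0.13 (SE, 95% interval 1.15 to 1.68, adjusted p = 7.15e-23, limma), or 2.66-fold. Among the 7002 genes, 12 had a larger log2 fold change and 8 a smaller p. Havcr1, the closest family member nearby, had at most 3 reads in any group of 3 libraries, and whether reads are shared between the TIM family genes was not tested.

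Lag3, the receptor of MHC class II, was at 260, 261 and 241 normalized counts in NT libraries 1 to 3 and at 349, 394 and 399 in Ets1 KO libraries 1 to 3. The groups did not overlap, and the lowest KO library was well above the highest NT library. The log2 fold change was 0.58 ± 0.10 (SE, 95% interval 0.39 to 0.77, adjusted p = 7.20e-07, limma). Its neighbor Ptms, which ends 1905 bases before the start of Lag3 on the same strand, also rose, by a log2 fold change of 0.38 ± 0.09 (SE, adjusted p = 6.46e-04, limma). Ptms was at 326 RPM in parenchyma NT and at 329 in spleen NT cells of the Ets1 experiment, where Lag3 was at 179 and 5.27. Whether reads of one gene reach the other was not tested. Cd4, on the other side of Lag3, was at 42.9 ± 6.76 and 28.1 ± 5.35 normalized counts in parenchyma NT and KO cells and was not called (limma, adjusted p = 0.121).

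Havcr2, which encodes TIM-3, a receptor of terminally activated T cells and of myeloid cells, was at 15.9, 10.3 and 9.83 normalized counts in NT libraries 1 to 3 and at 36.4, 26.3 and 19.3 in Ets1 KO libraries 1 to 3. The groups did not overlap, but the counts were small, from 10 to 36 reads per library. The log2 fold change was 1.11 ± 0.32 (SE, 95% interval 0.49 to 1.73, adjusted p = 0.0136, limma), or 2.15-fold. The call was lost without replicate 1 (log2 fold change 1.09, adjusted p = 0.151, limma), without replicate 2 (1.03, adjusted p = 0.162, limma) and with no filter on low values (adjusted p = 0.0684, limma). Myeloid cells also express Havcr2. The 7 myeloid markers summed to 12.3 to 27.8 RPM in NT and 19.8 to 39.6 in Ets1 KO libraries of the parenchyma, with Adgre1 at 0 in both, and the 3 microglia markers to 1.94 to 4.17 and 0.802 to 4.32, with P2ry12 at 0. The CD8 T cell markers summed to 0 to 2.67 and 4.01 to 7.20, with Cd8b at 0. The part of these cells in the result was not tested, and in bulk RNA fewer cells of a type and less RNA per cell cannot be told apart.

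Ctla4, the competitor of CD28, was at 215, 193 and 214 normalized counts in NT and at 284, 234 and 222 in Ets1 KO libraries 1 to 3 of the parenchyma. All KO libraries were above all NT libraries, the lowest of them only slightly. The log2 fold change of 0.24 ± 0.11 (SE, 95% interval 0.03 to 0.46) did not pass the test (adjusted p = 0.202, limma). Cd5, the modulator of antigen receptor signaling, was at 74.7, 91.2 and 84.5 in NT and at 75.8, 46.5 and 80.5 in KO libraries 1 to 3. The KO mean was lower through replicate 2, and the groups overlapped. The log2 fold change was -0.34 ± 0.16 (SE, adjusted p = 0.267, limma), and it was -0.02 without replicate 2. Of the 5 tested receptors, 4 did not overlap between the groups with KO higher, against 7.87% of all tested genes (10.5% were all lower and 18.4% did not overlap either way). For each of these 4, the two-sided exact permutation test of 3 against 3 libraries gave p = 0.1, the smallest value it allows.

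**Figure D2:**
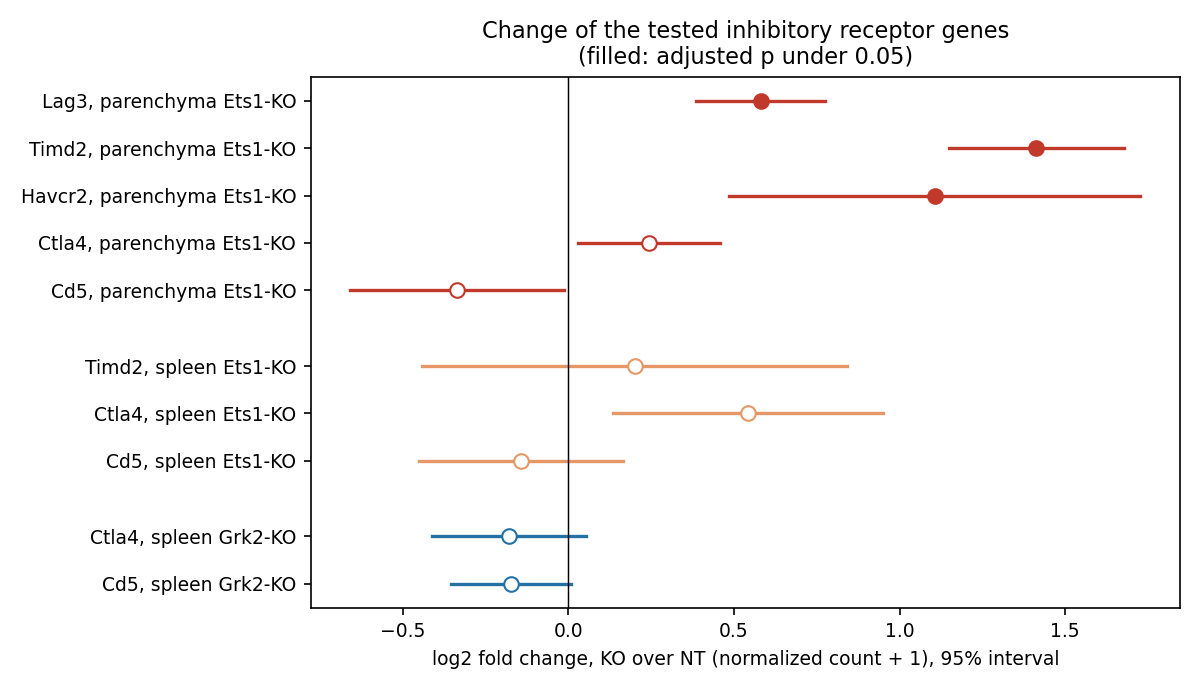
Log2 fold change of KO over NT on the log2(normalized count + 1) scale (x axis) with its 95% interval for each tested receptor in each comparison (y axis). Filled points have an adjusted p under 0.05, and these are Lag3, Timd2 and Havcr2 in the parenchyma, at 0.58, 1.41 and 1.11.

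**Figure D3:**
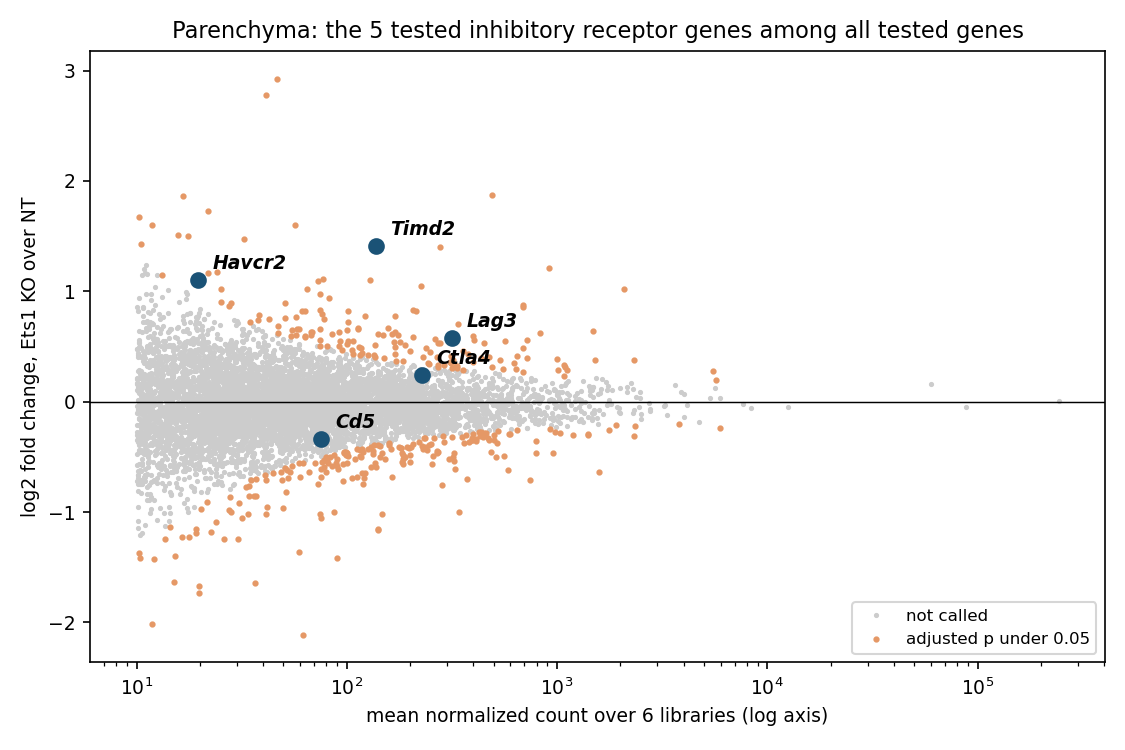
Mean normalized count over the 6 parenchyma libraries (x axis, log scale) against the log2 fold change of Ets1 KO over NT (y axis) of all 7002 tested genes. The 5 tested receptors are named; Timd2 stands at the upper edge for its level, and Ctla4 and Cd5 lie among genes that were not called.

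Among the receptors too low to test in the parenchyma, Btla had 0, 1 and 0 reads in NT and 1, 2 and 2 reads in Ets1 KO libraries 1 to 3. Tigit had 0, 1 and 0 reads in NT and 2, 1 and 0 in KO libraries. At this depth neither gene allows a comparison.

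In the spleen, no receptor was called in Ets1 KO cells. Of the 3 tested receptors 0 passed by limma, edgeR or DESeq2, and 1, Ctla4, had an unadjusted p under 0.05, where 2.22% of 6979 tested genes were called by limma, 1.02% higher and 1.2% lower. The spleen comparison asks which transcripts differ in Ets1 KO cells outside the nervous system at the same time after transfer. Ctla4 was at 62.4, 48.4 and 40.74 normalized counts in NT and at 67.8, 76.3 and 74.9 in Ets1 KO libraries 1 to 3. The KO libraries were all higher than the NT libraries, as for 8.04% of all tested genes (8.88% were all lower), but the log2 fold change of 0.54 ± 0.20 (SE, 95% interval 0.13 to 0.95) did not pass the adjusted test (adjusted p = 0.185, limma). Timd2 was at 18.6, 24.7 and 17.2 in NT and 24.0, 18.6 and 27.5 in KO libraries 1 to 3. These overlapped, with a log2 fold change of 0.20 ± 0.31 (SE, 95% interval -0.44 to 0.84, adjusted p = 0.825, limma). Cd5 was at 276, 216 and 133 in NT and at 182, 190 and 170 in KO libraries 1 to 3. The NT libraries spread far more widely than the KO libraries, and the log2 fold change was -0.14 ± 0.15 (SE, adjusted p = 0.731, limma).

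Lag3 and Havcr2 were near the limit of detection in the spleen. Lag3 had 3, 8 and 6 reads in NT and 6, 13 and 11 reads in Ets1 KO libraries 1 to 3, which is 5.27 ± 2.42 and 4.73 ± 1.52 RPM (SD, n = 3 each). Havcr2 had 3, 3 and 1 reads in NT and 3, 7 and 1 in KO libraries. The Ets1 KO libraries were the deeper ones, so the levels and not the reads are to be compared, and these overlapped for both genes.

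Whether the effect of Ets1 KO differed between the tissues could be tested for Ctla4, Timd2 and Cd5, from the log2 ratio of KO to NT of each replicate number in each table. The effect differed for Timd2. Its ratio was 1.41, 1.24 and 1.58 in the parenchyma and 0.35, -0.39 and 0.64 in the spleen on the log2 scale, for replicates 1 to 3. The 3 parenchyma ratios were all above the 3 spleen ratios, but the share of all genes that separate in this way was not counted. The difference of the ratios was 1.21 ± 0.29 (SE, 95% interval 0.62 to 1.81, adjusted p = 0.0205, limma), in a test that called 2.1% of 6520 genes, 0.675% with the higher effect in the parenchyma and 1.43% with the lower. This call was lost without replicate 1 (1.29, adjusted p = 0.125, limma) and without replicate 2 (1.00, adjusted p = 0.187, limma), and it held without replicate 3 (1.35, adjusted p = 0.0233, limma), the one that leaves out the spleen library that stood apart. For Ctla4 the difference was -0.30 ± 0.21 (SE, 95% interval -0.73 to 0.13, adjusted p = 0.581, limma) and for Cd5 -0.19 ± 0.24 (SE, 95% interval -0.67 to 0.29, adjusted p = 0.790, limma). Lag3 and Havcr2 did not pass the minimum in the spleen, and the tissue difference of their change was not tested.

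**Figure D4:**
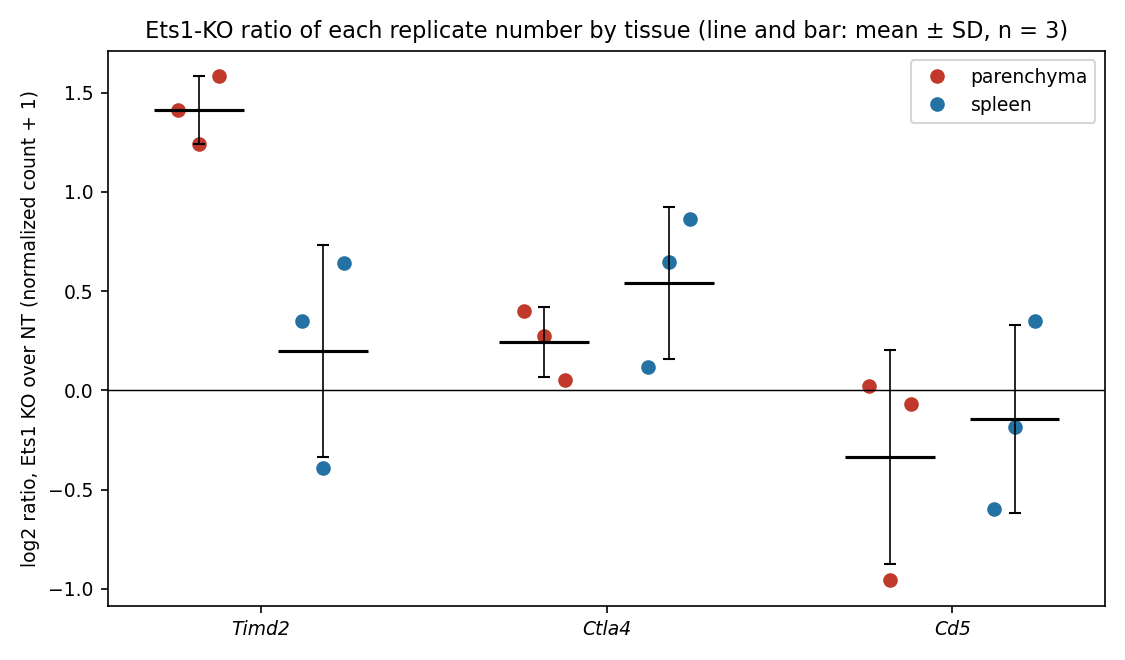
Log2 ratio of Ets1 KO to NT (y axis, normalized count + 1) of each replicate number in the parenchyma and in the spleen for the 3 receptors tested in both; lines and bars are the mean ± SD of 3 ratios. The Timd2 ratios lie between 1.24 and 1.58 in the parenchyma and between -0.39 and 0.64 in the spleen, while those of Ctla4 and Cd5 overlap.

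Grk2 KO cells of the spleen showed no called receptor either. Of the 2 tested receptors 0 passed by limma, edgeR or DESeq2 and 0 had an unadjusted p under 0.05, where limma called 1.56% of 6985 genes, 0.931% higher and 0.63% lower. Ctla4 was at 131, 153 and 145 normalized counts in NT and at 124, 145 and 111 in Grk2 KO libraries 1 to 3. The groups overlapped, with a log2 fold change of -0.18 ± 0.12 (SE, 95% interval -0.41 to 0.05, adjusted p = 0.630, limma). Cd5 was at 284, 303 and 302 in NT and at 263, 247 and 277 in KO libraries 1 to 3. All KO libraries were lower, as for 4.62% of all tested genes (7.59% were all higher), but the log2 fold change of -0.17 ± 0.09 (SE, 95% interval -0.35 to 0.01) did not pass (adjusted p = 0.501, limma). Timd2 had 6, 3 and 2 reads in NT and 12, 4 and 9 reads in KO libraries 1 to 3, and Lag3 had 3, 1 and 5 reads and 1, 0 and 3 reads. Btla had 0, 1 and 4 reads and 1, 4 and 6 reads. None of these 3 passed the minimum.

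The levels of NT cells in each tissue are given in RPM, without a test, because the tissues were prepared differently, by a Percoll gradient from the parenchyma and by CD4 enrichment from the spleen, and the tables were normalized separately. Between parenchyma NT and spleen NT cells of the Ets1 experiment, 48.9% of 7097 genes did not overlap, 19.6% higher and 29.3% lower in the parenchyma. Against spleen NT cells of the Grk2 experiment it was 63.3% of 7145 genes, 26.8% higher and 36.5% lower. The 2 sets of spleen NT libraries did not overlap for 60.7% of 7076 genes, 29.8% higher and 30.9% lower in the Grk2 experiment, so a difference of this kind is common between experiments within a tissue as well. Ctla4, Lag3, Havcr2, Timd2 and Cd5, 5 of the 9 receptors, did not overlap between the parenchyma and either set of spleen NT libraries. The shares cover only genes above the minimum, and of the receptors only Ctla4, Lag3, Timd2 and Cd5 were above it in both comparisons. Havcr2, Pdcd1, Tigit, Btla and Cd160 were too low. The count also asks for no overlap with both spleen sets, where each share is for 1 set. Count and shares thus rest on unlike genes, and the count is no result about the receptors. Markers of other cells differed between these NT libraries too. The 4 neural markers summed to 50.1 to 64.0 RPM in the parenchyma and did not pass 35.6 in any spleen group. Of the 2 NK cell markers present Ncr1 was at 0, so the values are those of Klrd1 alone. Klrd1 was at 18.1 to 20.1 RPM in the parenchyma and at 17.8 to 31.6 in the spleen of the Ets1 experiment. In the spleen of the Grk2 experiment it was at 110 to 136, and 1 gene does not show that NK cells were present. B cell markers did not pass 9.89 RPM and red cell markers 0.798. Their part in the levels was not tested.

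Lag3 had by far the widest range of these. It was at 186, 180 and 170 RPM in parenchyma NT libraries 1 to 3, at 2.47, 6.66 and 6.68 in spleen NT libraries 1 to 3 of the Ets1 experiment, and at 2.54, 0.856 and 3.80 in those of the Grk2 experiment. The parenchyma level was 33.9 times and 74.4 times the spleen levels, which rest on 17 and 9 reads in 3 libraries. Leaving out 1 library moved these ratios to between 26.8 and 39.1 and between 56.3 and 105. The ratios were ranked among genes that passed the minimum in either table and had more than 3 reads in both groups. Of these, 2 of 7403 and 2 of 7523 had a larger ratio, and the median ratio was 0.932 and 0.925. Genes with almost no reads in the spleen, such as the costimulatory gene Tnfrsf9, are left out, so the rank holds only within this set. Lag3 passed the minimum only in the parenchyma, where it is high, so its rank is a description and no test. In order, Lag3 was highest in parenchyma Ets1 KO, then in parenchyma NT cells, which did not overlap, and then in the 4 spleen groups, where spleen NT and Ets1 KO cells of the Ets1 experiment overlapped, as did spleen NT and Grk2 KO cells.

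Timd2 was at 56.8, 56.9 and 44.5 RPM in parenchyma NT libraries 1 to 3, at 14.01, 19.1 and 12.2 in spleen NT libraries of the Ets1 experiment and at 5.09, 2.57 and 1.52 in those of the Grk2 experiment. The 3 sets of NT libraries did not overlap, and the parenchyma level was 3.49 times and 17.2 times the spleen levels. Without replicate 1 of the spleen NT libraries of the Grk2 experiment, the second ratio was 25.8. In KO cells of the Ets1 experiment, the parenchyma level of 142 ± 9.14 was 8.15 times the spleen level of 17.4 ± 2.79 (SD, n = 3 each), where 53.6% of 7071 genes did not overlap between these KO groups, 20% higher and 33.6% lower in the parenchyma.

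Havcr2 was at 11.4, 7.11 and 6.96 RPM in parenchyma NT libraries 1 to 3, at 2.47, 2.50 and 1.11 in spleen NT libraries of the Ets1 experiment and at 0.848, 1.71 and 2.28 in those of the Grk2 experiment. The spleen values overlapped and rest on 7 and 6 reads. The myeloid markers, at 12.3 to 27.8 RPM in parenchyma NT libraries, were at 2.47 to 5.57 and at 0 to 0.848 in the same spleen libraries, and their part in the Havcr2 difference was not tested.

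Ctla4 was at 154, 133 and 152 RPM in parenchyma NT libraries 1 to 3, at 47.0, 37.5 and 29.0 in spleen NT libraries of the Ets1 experiment and at 103, 118 and 109 in those of the Grk2 experiment. The parenchyma was highest in each case, but its mean was 3.86 times the one spleen mean and 1.33 times the other. The 2 sets of spleen controls thus differed by 2.91 times from each other, more than the Grk2 set differed from the parenchyma. Its neighbors on the chromosome, the costimulatory genes Cd28 and Icos, were at 120 and 3745 RPM in parenchyma NT cells, at 78.4 and 588 in spleen NT cells of the Ets1 experiment and at 130 and 992 in those of the Grk2 experiment.

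Cd5 ran in the opposite direction. It was at 53.5, 62.7 and 59.8 RPM in parenchyma NT libraries 1 to 3, at 208, 167 and 94.6 in spleen NT libraries of the Ets1 experiment and at 222, 234 and 227 in those of the Grk2 experiment. The spleen means were 2.67 times and 3.88 times the parenchyma mean. Its neighbor and relative Cd6, another scavenger receptor of T cells, was at 120 RPM in parenchyma NT and at 212 and 145 in the 2 sets of spleen NT libraries.

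Ctla4 and Cd5, the 2 receptors above the minimum in every table, were each compared with the other such genes over the 18 libraries, as a description. There were 6207 such genes, the receptor itself included. The patterns most like Ctla4 included those of AC134224.1 and Srgn (the granule proteoglycan serglycin), with a Pearson r of the log2 levels of 0.970 and 0.968. For Cd5 they were Rp9, Cdkn2aipnl and Zfp706, at 0.972, 0.971 and 0.969. The 18 libraries share tissues, experiments and depth, so r is given without a p-value.

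The receptors also differ in where they lie. On Rnor_6.0, Havcr2 (chromosome 10, 31561894 to 31588943, plus strand) and Timd2 (chromosome 10, 31755509 to 31790263, minus strand) lie 166565 bases apart. Ctla4 is on chromosome 9, 67699378 to 67706065, plus strand, with Cd28 127507 bases and Icos 57831 bases away. Lag3 is on chromosome 4, 157425643 to 157433467, minus strand, and Cd5 on chromosome 1, 226770743 to 226791879, minus strand. All are annotated as protein-coding genes.

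The other genes of inhibitory receptor signaling were counted by list. In the parenchyma, costimulatory counterparts of the receptors changed in both directions. Of their 9 genes, all tested, 2 were called higher and 1 lower, with a median log2 fold change of 0.19 beside -0.03 over all tested genes. Over all tested genes 2.27% were called higher and 2.96% lower. Tnfrsf9, which encodes the costimulatory receptor 4-1BB, was at 239, 212 and 180 normalized counts in NT and at 693, 743 and 877 in Ets1 KO libraries 1 to 3. Its log2 fold change was 1.87 ± 0.09 (SE, adjusted p = 6.60e-86, limma), and it had no more than 2.17 normalized counts in any spleen library. Icos rose by a log2 fold change of 0.20 ± 0.06 (SE, adjusted p = 0.0421, limma), a call that was lost without replicate 1 (adjusted p = 0.335, limma) or 2 (adjusted p = 0.304, limma), and without the replicate block (adjusted p = 0.187, limma). Tnfrsf4, which encodes OX40, fell from 168 ± 15.7 to 119 ± 14.4 normalized counts (SD, n = 3 each, log2 fold change -0.50 ± 0.13, limma, adjusted p = 0.00403, and 0.222 without replicate 2).

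Transcription factors that are linked to inhibitory receptor genes had 3 of 19 tested genes called higher and 1 lower in the parenchyma by limma, where 2.27% of all tested genes were called higher and 2.96% lower. Their median log2 fold change was 0.27, and edgeR called 9 and DESeq2 2. Nr4a2, an early response factor downstream of the antigen receptor, rose from 132 ± 21.1 to 206 ± 32.1 normalized counts (SD, n = 3 each, log2 fold change 0.63 ± 0.12, limma, adjusted p = 1.74e-05). Batf, an AP-1 family factor, rose by 0.46 ± 0.11 (SE, adjusted p = 0.00269, limma) and Tbx21, which encodes T-bet, by 0.35 ± 0.08 (SE, adjusted p = 0.00169, limma) on the log2 scale. Both calls were lost without replicate 2 (adjusted p = 0.378 and 0.107, limma). Tcf7, a factor of memory and stem-like T cells, fell from 45.8 ± 5.56 to 26.9 ± 13.2 normalized counts (SD, n = 3 each, log2 fold change -0.86 ± 0.24, limma, adjusted p = 0.00937), and was not called without replicate 2 (adjusted p = 0.322, limma) or 3 (adjusted p = 0.0917, limma), or without the replicate block (adjusted p = 0.0765, limma).

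Of the ligands, 1 of 8 tested genes was called in the parenchyma, where 5.23% of all tested genes were called. Lgals9, which encodes the TIM-3 ligand galectin-9, fell by 0.85 on the log2 scale (SE 0.24, adjusted p = 0.0116, limma), from 43.0, 44.2 and 44.2 normalized counts in NT to 20.2, 20.2 and 32.9 in Ets1 KO libraries 1 to 3, a call that was lost without replicate 1 (adjusted p = 0.166, limma) or 2 (adjusted p = 0.197, limma). Of the signal mediators, 2 of 12 tested genes were called, both lower, as 2.96% of all tested genes were: the adapter Dok2, with a log2 fold change of -0.56 ± 0.13 (SE, adjusted p = 0.000975, limma, and 0.145 without replicate 1), and the Ras inhibitor Rasa1, at -0.31 ± 0.10 (SE, adjusted p = 0.0467, limma), which was not called without any 1 of the replicates (adjusted p between 0.1002 and 0.288, limma) or without the replicate block (adjusted p = 0.144, limma). By edgeR and DESeq2 Rasa1 was not called either, and DESeq2 did not call Dok2. The phosphatase genes Ptpn6 and Ptpn11 were not called. Of 20 other inhibitory receptors 4 were tested, Vsir, Nt5e, Cd6 and Klrc1, and 0 were called by limma, edgeR or DESeq2, with 1 at an unadjusted p under 0.05.

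In Ets1 KO cells of the spleen, where 2.22% of all tested genes were called, 2 genes of these lists were called. Fgl2, a fibrinogen-like protein whose relative Fgl1 binds LAG-3, rose from 282, 327 and 244 normalized counts in NT to 503, 489 and 470 in KO libraries 1 to 3. Its log2 fold change was 0.78 ± 0.12 (SE, adjusted p = 6.33e-04, limma), and 0.213 was the adjusted p without replicate 1. It was the 1 called gene of 9 tested on the ligand list, which holds it as a relative of a ligand. Of 16 tested transcription factors Maf was called, with a log2 fold change of 0.57 ± 0.15 (SE, adjusted p = 0.0422, limma), and it was lost without replicate 1 (adjusted p = 0.588, limma) or 3 (adjusted p = 0.153, limma). Of 7 costimulatory genes, 12 signal mediators and 2 other inhibitory receptors 0 were called by limma, edgeR or DESeq2, with 0, 2 and 1 at an unadjusted p under 0.05.

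In Grk2 KO cells of the spleen, 2 of 8 tested genes of the ligand list, Fgl2 among them, were called higher, where 0.931% of all tested genes were called higher and 1.56% either way. Fgl2 was at 480, 564 and 561 normalized counts in NT and at 984, 951 and 871 in KO libraries 1 to 3, a log2 fold change of 0.81 ± 0.07 (SE, adjusted p = 1.12e-16, limma). Lgals3, which encodes galectin-3, a ligand of LAG-3 among others, rose by 0.76 ± 0.09 on the log2 scale (SE, adjusted p = 1.86e-11, limma). Tnfrsf18, which encodes the costimulatory receptor GITR, fell from 117 ± 6.50 to 78.8 ± 20.8 normalized counts (SD, n = 3 each, adjusted p = 0.00462, limma), and the transcription factor Tox rose from 25.5 ± 4.80 to 49.0 ± 8.87 (SD, n = 3 each, adjusted p = 0.00803, limma). Both of the latter were lost without replicate 1 (adjusted p = 0.403 and 0.266, limma) or 2 (adjusted p = 0.486 and 0.484, limma). Of 13 signal mediators and 4 other inhibitory receptors 0 were called by limma, edgeR or DESeq2, with 1 and 0 at an unadjusted p under 0.05.

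**Figure D5:**
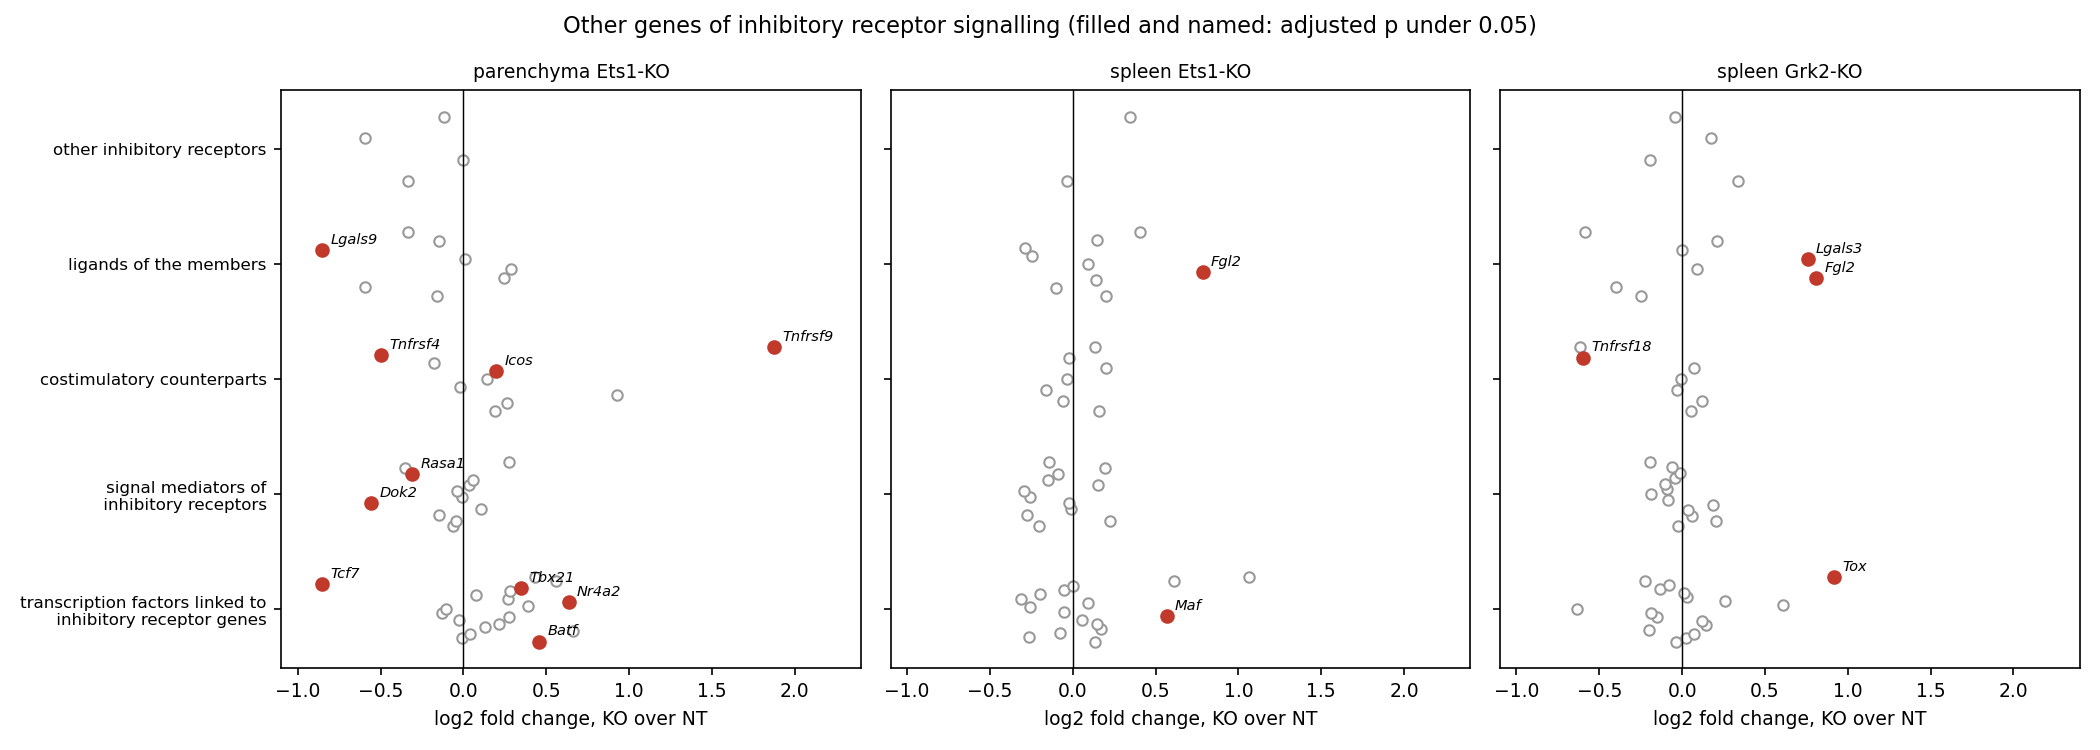
Log2 fold change of KO over NT (x axis) of the tested genes of 5 lists (y axis) in the 3 comparisons. Filled and named points have an adjusted p under 0.05: 10 genes in the parenchyma, 2 in Ets1 KO cells and 4 in Grk2 KO cells of the spleen, with Tnfrsf9 at 1.87 as the largest change.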

How the data were processed

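RNA of sorted T-MBP cells was sequenced with a 3′ mRNA library kit in 18 libraries. The authors aligned reads with STAR 2.7.2b to Rnor_6.0, counted them per gene with HTSeq 1.0.0 and divided them by DESeq2 size factors. The deposited values are this signal, normalized counts per gene and library, in 3 tables normalized separately. All positive values were whole multiples of 1 step per library (100%, tolerance 0.01), so whole reads could be recovered. The tables of comparisons made by the authors, which hold their fold changes and p-values, and 8 columns of human values were not used. The genes listed by identifier without a name numbered 388.

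A gene was tested in a table where its normalized counts averaged 10 or more, with limma 3.58.1 (R 4.3.3; lmFit, eBayes with a trend) on log2(normalized count + 1), with the replicate number as a block, two-sided, with Benjamini-Hochberg adjustment over all genes of the table and a threshold of 0.05. The block follows the correction per animal in the methods of the study. The labels do not say whether equal numbers share a rat or whether replicates are separate rats, though the study calls its replicates biological. The p-values thus refer to the variation between these libraries, in part or wholly that of other genes of like level. In the parenchyma fit limma gave the trend over all genes full weight (infinite prior degrees of freedom). Standard errors, intervals and p-values there came from genes of like level, and a gene's own spread had no weight. The tissue difference was tested on the log2 ratios within replicate numbers. edgeR 4.0.16 (quasi-likelihood) and DESeq2 1.42.0 on the recovered reads were alternatives. The scripts were tested on simulated data. Limits of detection cover counting error only, and 3 reads were taken as the limit of a count of 0. The 95% intervals come from the limma fits and rest on the same standard errors as the p-values.

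The receptors and lists were chosen with earlier results of these data known. Named are all 9 receptors, the edited genes, the called genes of each list that moved one way in all 3 replicate numbers (at most 6 per list and comparison), and the 3 genes with the pattern most like each receptor above the minimum in every table, of which 1 is not reported here. Neighboring genes, uncalled list members and Tpi1 were named after their values were seen.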

Additional observations from a re-analysis of the deposited data

Results flagged for a closer look

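The effect of Ets1 KO on Timd2 differed between the tissues by the test of the difference itself, at 1.21 on the log2 scale (parenchyma minus spleen, limma, adjusted p = 0.0205). That call was lost without replicate 1, without replicate 2 and when the variance was not modeled with a trend. For Fgl2 the difference was -0.54 ± 0.15 (SE, limma, adjusted p = 0.0476), since Fgl2 rose in the spleen and was at 307 and 365 normalized counts in parenchyma NT and Ets1 KO cells (limma, adjusted p = 0.12). The Fgl2 difference lies close to the threshold and was not tested under the alternatives. Its rise in the spleen was not called without replicate 1 (adjusted p = 0.213, limma). Lag3, Havcr2 and Tnfrsf9 were too low in the spleen for this test.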

How the results depend on the processing

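Of 173 values of single tested receptors under the alternatives, 164 kept their call with its direction or stayed uncalled, and 9 were weaker. Uncalled values could change sign and still count as kept. Cd5 in spleen Ets1 KO cells, for example, went from a log2 fold change of -0.143 to 0.083 without 1 replicate number. None of those that were called changed sign. The number of receptors called in the parenchyma was 3, and 2 or 3 without 1 replicate number. It was 0 when the variance was not modeled with a trend, where Lag3, Timd2 and Havcr2 had adjusted p of 0.281, 0.105 and 0.167 by limma and 3 genes in all were called. DESeq2 gave no adjusted p for Havcr2. In the tissue difference 1 receptor was called, and 0 with a minimum of 50, without a trend, and without replicate 1 or 2, so 0 to 1 without 1 replicate number. The minimum of 50 removed Timd2 from the test. In the spleen, 0 receptors were called under every alternative in both experiments.

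The lists had 10 called genes in the parenchyma, 7 without the block, 6 with no filter, 0 without a trend, 4 by DESeq2 and 4 to 10 without 1 replicate number. In spleen Ets1 KO cells they had 2, and 1 without the block, 0 without a trend, 1 by DESeq2 and 0 to 2 without 1 replicate number. In spleen Grk2 KO cells they had 4, and 2 without the block, 0 without a trend, 2 by DESeq2 and 2 to 4 without 1 replicate number. Without the block Icos, Rasa1 and Tcf7 lost their calls in the parenchyma (adjusted p of 0.187, 0.144 and 0.0765 by limma), Maf in spleen Ets1 KO cells (0.0962) and Tnfrsf18 and Tox in spleen Grk2 KO cells (0.153 and 0.0865). By DESeq2 Tnfrsf4, Dok2, Rasa1 and Batf lost their calls in the parenchyma. So did Maf in spleen Ets1 KO cells and Tnfrsf18 in spleen Grk2 KO cells. Rasa1 was not called in 10 of 14 alternatives. The causes were not tested.

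Over all genes, the parenchyma had 366 calls, 200 without the block, 212 with no filter, 3 without a trend and 90 by DESeq2. Spleen Ets1 KO cells had 155 calls, 71 without the block, 242 with no filter, 238 by edgeR, 50 by DESeq2, 0 without a trend and 3 without replicate 1. Spleen Grk2 KO cells had 109, 19 without the block, 60 with a minimum of 50, 0 without a trend, 9 by DESeq2 and 6 without replicate 2. The tissue difference had 137 calls, 47 without the block, 2 without a trend and 28 without replicate 1. The deviations of libraries with the same replicate number correlated by 0.126, 0.159 and -0.003 in the parenchyma, 0.0889, 0.0768 and 0.175 in the spleen Ets1 table and 0.145, 0.00617 and 0.122 in the spleen Grk2 table, so the numbers are not shown to pair the libraries. Without the block the 3 receptors called in the parenchyma kept their calls, Havcr2 at an adjusted p of 0.0486 by limma. With TMM scaling of the 9 control libraries, 5 receptors did not overlap between the tissues, as without it. Under TMM scaling or without 1 control library, 70 of 70 ratios of parenchyma to spleen levels moved by less than the combined spread of replicates in both groups. This is a wide mark: the Lag3 ratio to the spleen NT libraries of the Grk2 experiment went from 74.4 to as much as 105 and still counted. Scaling moved the direction of calls in the spleen: 71 of 155 calls were higher in Ets1 KO cells and 109 of 192 with upper quartile scaling, and 65 of 109 in Grk2 KO cells, 34 of 75 with quantile normalization and 37 of 81 with upper quartile scaling. With 3 libraries per group an exact p cannot go below 0.1.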
